A study of Mus musculus with 6 samples.

Results

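The genes described here are those of MHC class I antigen presentation, the route by which a cell shows pieces of its own proteins at its surface. They were taken by symbol from a fixed set of 10 names (B2m, H2-K1, H2-D1, Tap1, Tap2, Tapbp, Psmb8, Psmb9, Psmb10 and Nlrc5). All 10 had a row among the 15159 genes of the count table, and all 10 had enough counts to be among the 14758 genes tested. The heart cells were H3K9M cells (3 libraries), in which the H3.3 transgene carries methionine in place of lysine 9 and which the labels describe as suppressed in H3K9 methylation, and H3WT cells (3 libraries), in which the transgene is wild-type H3.3. Both groups came from C57BL/6 x 129S4/SvJae embryos of day 18.5, were induced with doxycycline at 2 µg/ml, and were kept for 4 days on soft silicone (PDMS) of 13 kPa before polyadenylated RNA was sequenced. The labels name the samples embryonic cardiac cells, with no sort for a cell type, and do not give the animals that each library was made from. The p-values given here therefore describe the spread of these libraries, which may be technical.

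In this pathway proteins are cut by the proteasome, and the peptides are carried into the endoplasmic reticulum by a transporter made of TAP1 and TAP2. Tapasin, the product of Tapbp, holds the transporter next to empty class I molecules, which consist of a heavy chain (H2-K1 or H2-D1 in the mouse) and beta-2-microglobulin. Psmb8, Psmb9 and Psmb10 encode the inducible catalytic subunits that replace constitutive ones in the immunoproteasome. Nlrc5 encodes a coactivator that acts on class I promoters through a module of S, X and Y boxes, and interferon gamma is the classical inducer of the whole set. Muscle cells of the heart are known for low class I levels, while endothelial cells and leukocytes carry more.

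In GENCODE M21 (GRCm38, the mm10 build of the files) 7 of the 10 genes lie in the MHC region of chromosome 17. On it H2-K1 spans chr17:33996017-34000347 and H2-D1 chr17:35262730-35267499, with Tapbp at chr17:33915899-33929292. Psmb9 (chr17:34181987-34187764), Tap1 (chr17:34187553-34197225), Psmb8 (chr17:34197721-34201454) and Tap2 (chr17:34203527-34216321) are neighbours, and the exons of Psmb9 and Tap1 overlap by 212 bases on opposite strands. B2m lies at chr2:122147686-122153083, Nlrc5 at chr8:94434356-94527272 and Psmb10 at chr8:105935735-105938444.

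Promoters of B2m, the heavy chains and the Psmb9-Tap1 pair are shown so that the elements of this module can be read in the letters, and because H2-K1 and H2-D1 are close copies. Of the 10 genes, 8 had a RefSeq promoter window (GRCm38.p6), and the 250 bases before the annotated start are given for B2m, H2-K1 and H2-D1. The H2-K1 window is the upstream of the 2 that the table holds. Psmb9 and Tap1 are transcribed away from each other, so the 225 bases between their RefSeq starts are given once, on the Tap1 strand. The annotated starts used here are those of RefSeq and can differ from GENCODE M21. There the exons of Psmb9 and Tap1 overlap, and the printed H2-D1 window lies inside the span of the H2-D1 gene. Capitals mark matches, on either strand, to 5 motifs: the NF-kB element of class I enhancer A (the first run of capitals in H2-K1), a long interferon element (GAAA, any 2 bases, GAAA) and a short form of it (GAA, any 2 bases, GAAA), the X2 box core TGACG and the Y box core CCAAT.
B2m, chr2:122147437-122147686, plus strand: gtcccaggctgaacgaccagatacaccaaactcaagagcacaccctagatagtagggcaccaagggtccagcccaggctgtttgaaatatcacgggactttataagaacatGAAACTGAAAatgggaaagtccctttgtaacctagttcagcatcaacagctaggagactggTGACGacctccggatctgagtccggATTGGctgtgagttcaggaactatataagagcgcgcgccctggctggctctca
H2-K1, chr17:34000348-34000597, minus strand: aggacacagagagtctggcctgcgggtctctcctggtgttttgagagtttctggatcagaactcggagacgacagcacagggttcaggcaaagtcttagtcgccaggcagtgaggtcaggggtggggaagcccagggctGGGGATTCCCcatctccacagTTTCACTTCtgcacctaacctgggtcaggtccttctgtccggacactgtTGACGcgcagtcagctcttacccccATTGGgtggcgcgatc
H2-D1, chr17:35262844-35263093, plus strand: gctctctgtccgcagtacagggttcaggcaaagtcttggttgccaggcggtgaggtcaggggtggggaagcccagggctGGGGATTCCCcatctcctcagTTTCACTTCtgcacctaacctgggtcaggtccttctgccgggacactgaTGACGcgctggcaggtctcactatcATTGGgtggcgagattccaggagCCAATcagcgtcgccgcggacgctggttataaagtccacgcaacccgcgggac
Psmb9-Tap1, chr17:34187331-34187555, plus strand: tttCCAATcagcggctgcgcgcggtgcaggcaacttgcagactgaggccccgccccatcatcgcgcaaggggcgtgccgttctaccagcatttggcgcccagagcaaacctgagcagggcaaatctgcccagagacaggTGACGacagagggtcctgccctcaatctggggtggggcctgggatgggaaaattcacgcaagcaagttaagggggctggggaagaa

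The windows of the heavy chains shared 4 matches in the same order and with the same distances between them. A further Y core on the plus strand stood 53 bases before the H2-D1 start and, in the other H2-K1 window of the table, 6 bases before that window's start, so it is no difference between the genes. In H2-K1 the NF-kB element, the short interferon element, the X2 core and the Y core began 111, 90, 41 and 16 bases before the annotated start, and in H2-D1 171, 150, 101 and 76 bases before it. Over 190 aligned positions the windows were 87.4% identical. In B2m the long interferon element, the X2 core and the Y core began 139, 78 and 53 bases before the start. The stretch between Psmb9 and Tap1 held the X2 and Y cores and neither interferon element. These cores began 86 and 222 bases before the Tap1 start, and 144 and 8 bases before the Psmb9 start. They thus lay further apart than the X2 core and the first Y core in B2m, H2-K1 and H2-D1. Among all 32851 promoter windows of the table, 0.0852% held the NF-kB element, 2.98% the long and 6.31% the short interferon element, 17.8% the X2 core and 33.85% the Y core. The X2 and Y cores are thus common, and a match is a description of the letters and not a binding site.

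No gene of the class I pathway differed between H3K9M and H3WT beyond the spread of the libraries. In the quasi-likelihood test of edgeR 0 of the 10 genes rose and 0 fell at an adjusted p under 0.05, where 1.99% of all tested genes were called (0.935% higher and 1.05% lower). At an unadjusted p under 0.05 the count was also 0 of 10 in edgeR and in limma-voom, against 16.4% of all genes in edgeR (7.78% higher and 8.61% lower). DESeq2 called 0 of 10, with 2 genes (Tap2 and Psmb8) lower at an unadjusted p under 0.05. The H3K9M and H3WT libraries overlapped in all 10 genes, while they did not overlap in 22.6% of all tested genes. The fold changes were negative for 9 genes and positive for H2-D1, with a median log2 fold change of -0.19, beside -0.00245 over all genes tested. The 10 genes are not independent of each other across libraries, as described further on, so this count of signs is a description.

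The light chain gene B2m, common to all class I molecules, stood far above the others. It was at 228, 266 and 231 CPM (counts scaled by the TMM-adjusted library size) in H3K9M and at 297, 292 and 242 CPM in H3WT. The highest H3K9M library lay above the lowest H3WT library, so the groups overlapped. The means were 242 ± 21.2 CPM in H3K9M and 277 ± 30.7 CPM in H3WT (SD, n = 3 each), and on the log2 scale H3K9M differed from H3WT by -0.20 ± 0.10 (SE; edgeR adjusted p = 0.400). Its 95% interval, from -0.43 to 0.04, corresponds to a fold between 0.740 and 1.03.

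Neither classical heavy chain passed the test, and both 95% intervals included 0. Their standard errors were near the median of 0.133 over all tested genes. H2-K1 was at 72.7, 91.5 and 80.0 CPM in H3K9M and at 99.9, 85.4 and 68.8 CPM in H3WT (log2 fold change -0.06 ± 0.14, edgeR adjusted p = 0.883). H2-D1 was at 74.7, 92.7 and 93.0 CPM in H3K9M and at 92.8, 81.8 and 67.6 CPM in H3WT (log2 fold change 0.10 ± 0.13, edgeR adjusted p = 0.756). The H3WT libraries spread more widely than the H3K9M libraries in both genes, with replicate 1 highest and replicate 3 lowest. The 95% intervals reached from 0.772-fold to 1.20-fold for H2-K1 and from 0.876-fold to 1.32-fold for H2-D1.

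Since the scaling of a library cancels in the ratio of the 2 heavy chains, this ratio was also compared. There were 0.974, 0.987 and 0.860 H2-K1 counts per H2-D1 count in H3K9M, and 1.08, 1.04 and 1.02 in H3WT. Every H3K9M library was below every H3WT library, although replicate 3 of H3K9M stood apart from the other two. The log2 ratio was 0.16 lower in H3K9M (difference -0.16), with an exact two-sided permutation p of 0.1, which is the smallest that 3 libraries against 3 can give. Reads cannot be assigned to these genes without doubt: of the 50-base words in H2-K1 transcripts 9.63% also occur in another gene (4.08% in H2-D1), and of those in H2-D1 transcripts 12.8% do (5.44% in H2-K1). A row named H2-L held between 82.8% and 86.6% of the H2-D1 count in every library, and GENCODE M21 has no gene of that symbol, so whether H2-L and H2-D1 share reads was not tested.

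The genes of the peptide loading complex had wider intervals at the transporter than at tapasin. Tapbp was at 81.7, 91.5 and 90.0 CPM in H3K9M and at 107, 94.2 and 78.5 CPM in H3WT (log2 fold change -0.08 ± 0.11, edgeR adjusted p = 0.770). Tap1 was at 6.61, 12.7 and 8.29 CPM in H3K9M and at 15.2, 14.2 and 9.26 CPM in H3WT (-0.49 ± 0.27, 0.417), and its fold change ranged from -0.80 without H3K9M replicate 2 to -0.30 without H3K9M replicate 1. Tap2 was at 9.78, 12.8 and 11.7 CPM in H3K9M and at 16.4, 15.1 and 12.3 CPM in H3WT (-0.35 ± 0.15, 0.306). For both transporter genes 2 of the 3 H3K9M libraries were below all H3WT libraries, and H3K9M replicate 2 was above H3WT replicate 3. Of the 50-base words of Tapbp 23.2% also occur in another gene, mostly in the opposite-strand gene Gm19412. For Tap2 it is 11.6%, in Gm15821 and Gm20496, and for Psmb8 11.9%, nearly all in Gm20496, which are opposite-strand genes as well. The strand setting of the counting is not given in the sources used here, so reads of such partners cannot be told apart.

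Among the inducible proteasome subunits Psmb10 was abundant and Psmb8 and Psmb9 were low. Psmb10 was at 21.6, 23.2 and 21.9 CPM in H3K9M and at 26.2, 26.1 and 22.9 CPM in H3WT (log2 fold change -0.17 ± 0.10, edgeR adjusted p = 0.430). Psmb8 was at 0.854, 2.39 and 1.41 CPM in H3K9M and at 5.04, 3.53 and 1.45 CPM in H3WT. It had the largest fold change of the 10 genes, -1.10 ± 0.51 (edgeR adjusted p = 0.330), with an interval from 0.209-fold to 1.04-fold. It depended on replicate 1, being -0.68 without H3WT replicate 1 and -0.39 without replicate 1 of both groups, where Nlrc5 had the larger change (-0.65). In H3WT its standard deviation was 53.9% of its mean, so H3WT replicate 3 lay next to H3K9M replicate 3 and below H3K9M replicate 2. Psmb9 rested on 20, 54 and 41 counts in H3K9M and on 34, 64 and 32 counts in H3WT (-0.19 ± 0.56, 0.904). A doubling or a halving of Psmb9 would lie within the 95% interval of 0.364-fold to 2.11-fold.

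Nlrc5, the class I coactivator, was low in both groups. It had 46, 37 and 15 counts in H3K9M and 35, 57 and 24 counts in H3WT, which is at most 1.03 CPM. The log2 fold change was -0.27 ± 0.60 (edgeR adjusted p = 0.873), with an interval from 0.320-fold to 2.16-fold, so changes within these bounds cannot be told from none. Its standard deviation was 48.3% of the mean in H3K9M and 50.8% in H3WT. None of the 10 genes passed in the authors' deposited table either, with the smallest adjusted p at Psmb8 (0.175, log2 fold change -1.31). In the authors' deposited table H2-K1 is at 0.0026 and Psmb9 at 0.07, whereas both were negative in edgeR. The mean normalised counts of the authors' deposited table were a median of 25.2% of the mean deposited count over the 14412 genes shared with the count table; the reason was not tested.

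**Figure D1:**
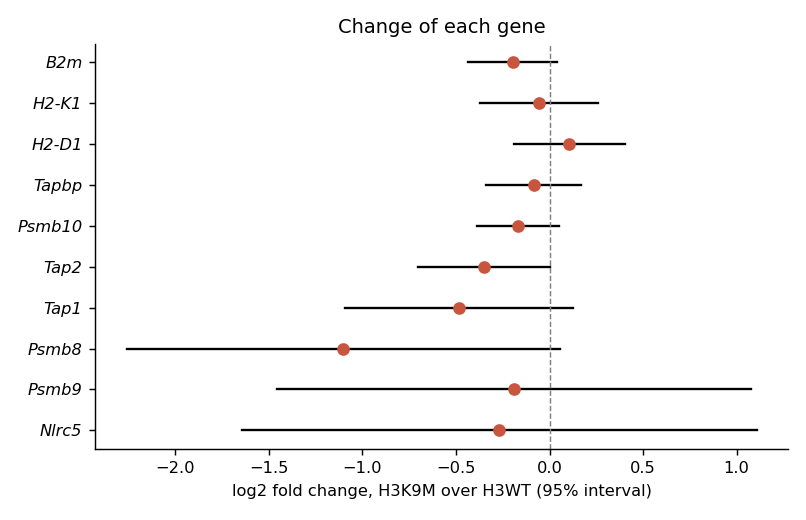
Log2 fold change of each gene, H3K9M over H3WT (points), with its 95% interval from the edgeR fit (lines) and 0 as a dashed line. All 10 intervals include 0; that of Tap2, -0.70 to 0.00, reaches it only at its upper end, and those of Psmb8, Psmb9 and Nlrc5 are the widest.

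Levels of different genes can be compared per kilobase of transcript, here that of the principal transcript in GENCODE M21. B2m averaged 301 CPM per kb over all 6 libraries, H2-K1 51.3, H2-D1 39.9, Tapbp 31.2 and Psmb10 18.0. The next group lay lower, with Tap2 at 3.78, Tap1 at 3.74 and Psmb8 at 1.50 CPM per kb. Psmb9 averaged 0.515 and Nlrc5 0.0805 CPM per kb. The ranges over libraries overlapped between H2-K1 and H2-D1, between H2-D1 and Tapbp, between Tap2 and Tap1, between Tap1 and Psmb8, and between Psmb8 and Psmb9. Within a library, however, the order with these lengths was the same in all 6 for 4 of these pairs, and only Tap2 and Tap1 changed places, with each the higher in 3 libraries. The order of the heavy chains depends on the length used. Their principal transcripts have 1619 (H2-K1) and 2102 bases (H2-D1), but all annotated exons 2938 and 2579 bases. With mean levels of 83.0 and 83.8 CPM, the exon lengths would put H2-K1 below H2-D1. The lengths of Tap2 and Tap1 differ as well (3442 and 2953 bases, against 3781 and 5476 over all exons). The ranges did not overlap from B2m to H2-K1, from Tapbp to Psmb10, from Psmb10 to Tap2 and from Psmb9 to Nlrc5. Psmb9 and Tap1, whose RefSeq starts have 225 bases between them, differed in level in every library, with Psmb9 between 0.253 and 0.853 and Tap1 between 2.24 and 5.15 CPM per kb.

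**Figure D2:**
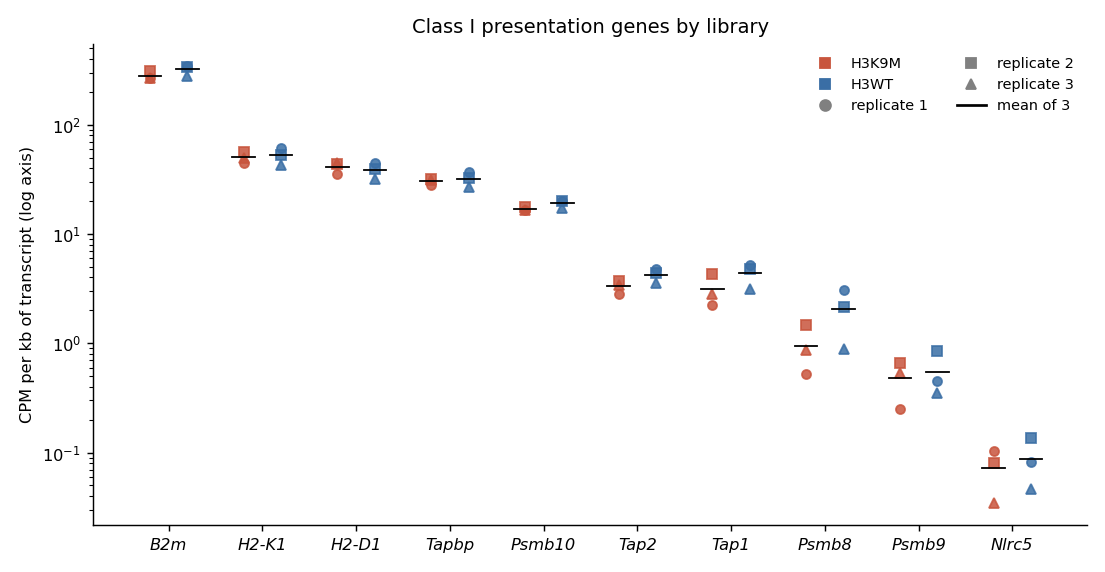
Level of each gene in CPM per kilobase of principal transcript, on a log axis, in 3 H3K9M libraries (left of each pair) and 3 H3WT libraries (right); point shapes give the replicate and bars the mean. B2m lies near 301 and Nlrc5 near 0.0805 CPM per kb, and the groups overlap in every gene.

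Each inducible subunit has a constitutive counterpart (Psmb8 replaces Psmb5, Psmb9 replaces Psmb6 and Psmb10 replaces Psmb7), so the inducible share of the 6 transcripts was computed per kb. It was 4.53%, 5.10% and 4.68% in H3K9M and 6.69%, 5.97% and 5.24% in H3WT. All 3 H3K9M libraries were below all 3 H3WT libraries, with means of 4.77% ± 0.295 in H3K9M and 5.96% ± 0.725 in H3WT (SD, n = 3 each). The difference, -1.19 percentage points, is given as a description with no test. Psmb10 made up most of the inducible transcripts: it was 15.8% to 17.7% of the Psmb10 and Psmb7 sum in H3K9M and 18.3% to 20.9% in H3WT. Psmb8 was 0.416% to 1.17% of its sum with Psmb5 in H3K9M and 0.793% to 2.73% in H3WT, which overlap. The constitutive genes had small positive fold changes that did not pass the test. In Psmb5 and Psmb7 every H3K9M library was above every H3WT library, where groups did not overlap in 22.6% of all tested genes. The groups overlapped in Psmb6, at 127 ± 5.95 CPM in H3K9M and 120 ± 7.26 CPM in H3WT (log2 fold change 0.08 ± 0.08, edgeR adjusted p = 0.656). Psmb5 averaged 111 ± 1.76 CPM in H3K9M and 102 ± 4.51 CPM in H3WT (log2 fold change 0.12 ± 0.07, edgeR adjusted p = 0.438), and Psmb7 98.4 ± 3.36 CPM in H3K9M and 90.8 ± 3.26 CPM in H3WT (0.12 ± 0.07, 0.444).

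**Figure D3:**
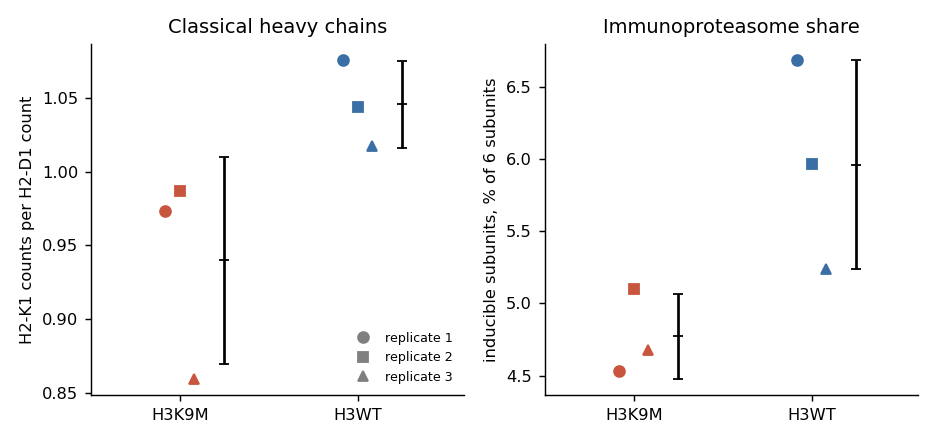
Left, H2-K1 counts per H2-D1 count, and right, the inducible subunits as a percentage of the 6 catalytic proteasome transcripts (per kb), in 3 H3K9M and 3 H3WT libraries; bars are mean and SD, and the vertical axes do not start at 0. The groups do not overlap in either panel, with H3K9M at 0.860 to 0.987 and 4.53% to 5.10%.

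Most of the 10 genes, but not all, followed a shared profile over the libraries. Their summed level was 497, 594 and 538 CPM in H3K9M and 660, 614 and 503 CPM in H3WT. Averaged over the standardised log2 levels of the genes, H3K9M replicates 1, 2 and 3 were at -0.96, 0.34 and -0.42 standard deviations and H3WT replicates 1, 2 and 3 at 1.01, 0.80 and -0.78. H3WT replicates 1 and 2 were thus high, H3K9M replicate 1 and H3WT replicate 3 low. Over the 6 libraries Pearson's r of a gene with the mean of the other 9 was 0.964 for Psmb8, 0.952 for B2m and 0.943 for Tap1, but 0.544 for H2-D1, 0.657 for Psmb9 and 0.360 for Nlrc5. Nlrc5 stood at 0.69 in H3K9M replicate 1, where the other 9 genes were below their means. These libraries share their sequencing and scaling, so the correlations are descriptions with no test. The genes outside the set with the most similar profile among 10504 named genes of at least 5 CPM were Zfp39, Eva1b, Prrx1, Ccnl2, Fabp5 and Snhg18, with r between 0.984 and 0.994 over the 6 libraries.

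Markers of other heart cells followed the same order of libraries in part. The summed level of the leukocyte markers was 270, 355 and 352 CPM in H3K9M and 670, 364 and 194 CPM in H3WT. As with the class I genes, H3WT replicate 1 was highest, and H3K9M replicate 1 and H3WT replicate 3 were lowest. Of the 32 leukocyte markers 22 were tested, and 0 rose and 0 fell in edgeR. At an unadjusted p under 0.05, 2 were lower and 0 higher, beside 8.61% and 7.78% of all tested genes. Negative fold changes were found for 17 of the 22, and the list median was -0.37. The T, B and NK cell markers Cd3e, Cd3g, Cd8a, Cd79a, Ms4a1, Nkg7 and Ncr1 had no row. The T cell gene Cd4 had 6, 4 and 10 counts in H3K9M and 37, 60 and 34 counts in H3WT, which do not overlap (log2 fold change -2.69 ± 0.63, edgeR adjusted p = 0.0759). Cx3cr1, a macrophage receptor gene, was at 1.69, 1.79 and 1.22 CPM in H3K9M and at 3.14, 3.84 and 3.58 CPM in H3WT (-1.16 ± 0.26, 0.0661), again without overlap. Cd52 was also without overlap but went the other way, being higher in H3K9M. It was at 0.905, 1.04 and 0.907 CPM in H3K9M and at 0.802, 0.667 and 0.353 CPM in H3WT (0.65 ± 0.45, 0.534). Cd4, Cx3cr1 and Cd52 were the only leukocyte markers so separated, a share of 13.6% beside 22.6% among all genes. The pan-leukocyte gene Ptprc was at 2.92, 3.64 and 3.14 CPM in H3K9M and at 5.99, 3.30 and 1.73 CPM in H3WT. Fibroblast markers summed to 16153, 19949 and 22495 CPM in H3K9M and to 22712, 20881 and 16786 CPM in H3WT, and were lowest in the same pair of libraries. Cardiomyocyte markers summed to 38430, 34004 and 37682 CPM in H3K9M and to 33829, 32064 and 39868 CPM in H3WT, and were highest in that pair. All 15 cardiomyocyte markers and all 12 fibroblast markers were among the tested genes. Endothelial markers summed to 836, 975 and 961 CPM in H3K9M and to 939, 1153 and 1292 CPM in H3WT. They did not follow this order of libraries, being lowest in H3K9M replicate 1 but highest in H3WT replicate 3. At an unadjusted p under 0.05 in edgeR, 0 of 20 were higher and 10 lower, where 8.61% of all tested genes were lower. The part of cell composition in the class I levels was not tested, and in bulk RNA fewer cells of a type and less RNA per cell cannot be told apart.

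**Figure D4:**
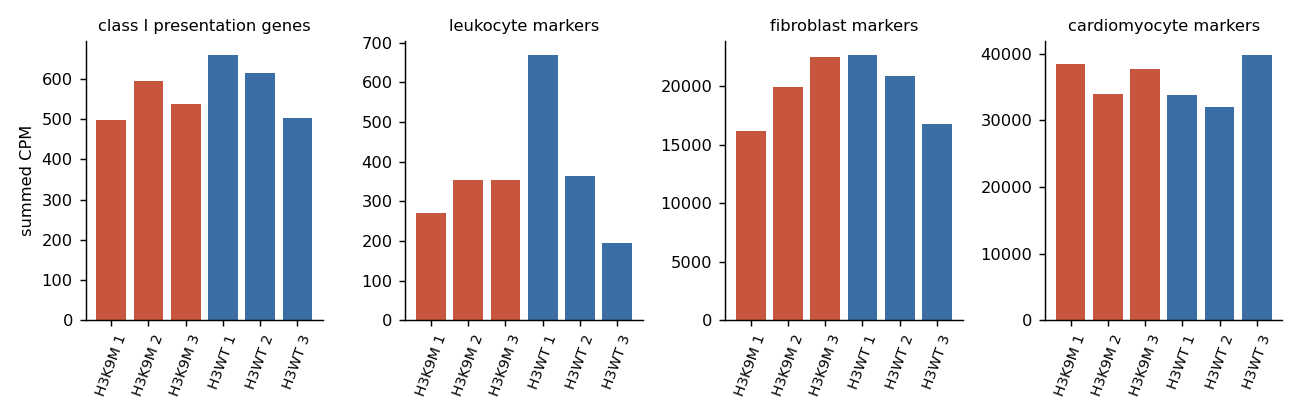
Summed CPM of the 10 class I presentation genes and of the leukocyte, fibroblast and cardiomyocyte marker lists in each of 3 H3K9M and 3 H3WT libraries. H3K9M replicate 1 and H3WT replicate 3 are lowest for class I genes (497 and 503 CPM), leukocyte and fibroblast markers, and highest for cardiomyocyte markers. Endothelial markers, not drawn, are lowest in H3K9M replicate 1 (836 CPM) but highest in H3WT replicate 3 (1292 CPM).

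The rest of the pathway showed no call either, apart from Irgm1 among the interferon-stimulated genes. Of 8 genes for constitutive catalytic and assembly subunits, 4 proteasome activators, 11 other core subunits and 12 tested peptide loading and trimming helpers, 0 rose and 0 fell in edgeR. This also held at an unadjusted p under 0.05, where 7.78% of all tested genes were higher and 8.61% lower. The activators Psme1 and Psme2, which are inducible with the immunoproteasome, were at -0.10 ± 0.10 and -0.09 ± 0.14 on the log2 scale. The genes of the chaperones that fold heavy chains, Canx (0.16 ± 0.10) and Calr (0.04 ± 0.09), were likewise uncalled.

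In the list of nonclassical and class Ib genes, 8 fold changes were positive and 8 negative. Of 16 tested, 0 rose and 0 fell in edgeR. At an unadjusted p under 0.05, 2 were higher and 2 lower, beside 7.78% and 8.61% of all tested genes. H2-M3, which presents formylated peptides, was at 1.23, 1.93 and 2.09 CPM in H3K9M and at 1.10, 0.775 and 0.617 CPM in H3WT (log2 fold change 1.07 ± 0.39, edgeR adjusted p = 0.221). H2-Q4 was at 7.51, 9.26 and 6.91 CPM in H3K9M and at 12.9, 11.5 and 8.96 CPM in H3WT (-0.49 ± 0.18, 0.227). H2-T22 and H2-T9 had the same counts in 5 libraries and differed by 1 count in the sixth, so they are 1 measurement, at 0.16 ± 0.16. The list also holds H2-Ke6, a dehydrogenase gene of the region that is no class I gene (-0.00029 ± 0.11). It further holds the H2-L row described above and genes of other chromosomes, such as Mr1 (chromosome 1) and Hfe (chromosome 13). Its counts are therefore not those of class Ib genes alone. Of the 11 class II genes, which mark professional antigen-presenting cells, 5 were tested and 0 called in edgeR or at an unadjusted p under 0.05. The groups did not overlap in 2 of them (40%), beside 22.6% of all tested genes. These were H2-Eb1 (0.75 ± 0.33, edgeR adjusted p = 0.306) and H2-DMa (0.46 ± 0.26, 0.432), both higher in H3K9M. The other 3 had negative fold changes. The class II coactivator gene Ciita had no row, and the invariant chain gene Cd74 had between 3 and 19 counts in a library.

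Regulators of class I transcription were also uncalled. Of 22 transcription factors 0 rose and 0 fell in edgeR (Atf1 higher and 0 lower at an unadjusted p under 0.05), with a median log2 fold change of -0.03. Irf1, the interferon-induced activator of class I and Psmb9, was at 13.4, 17.0 and 16.5 CPM in H3K9M and at 20.1, 42.2 and 14.4 CPM in H3WT (-0.71 ± 0.34, edgeR adjusted p = 0.353). H3WT replicate 2 stood apart in that gene. Of 11 interferon receptor and signalling genes 0 were called, with 9 negative fold changes and Ifnar1, a subunit of the type I receptor, lower at an unadjusted p under 0.05 (-0.23 ± 0.09, 0.242).

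Of 32 tested interferon-stimulated genes 0 rose and 1 fell, where 1.05% of all tested genes fell. At an unadjusted p under 0.05 in edgeR, 1 was higher and 1 lower, beside 7.78% and 8.61% of all tested genes. The higher was Oas3, an antiviral synthetase gene, at 1.38, 1.50 and 1.12 CPM in H3K9M and at 0.606, 0.468 and 0.162 CPM in H3WT (log2 fold change 1.70 ± 0.53, edgeR adjusted p = 0.159). The gene that fell was Irgm1, an immunity-related GTPase, at 34.8, 30.5 and 21.5 CPM in H3K9M and at 63.5, 79.2 and 66.3 CPM in H3WT. The groups did not overlap, and the log2 fold change was -1.27 ± 0.17 (edgeR adjusted p = 0.0118). The call was lost without H3K9M replicate 2 (0.0540) or H3WT replicate 2 (0.0672). The list's median log2 fold change was -0.18, close to that of the class I genes. Among markers of other cells the endothelial genes Nos3 and Robo4 fell and the fibroblast gene Ddr2 rose. With the replicate block these 3 calls were lost, at adjusted p of 0.164, 0.153 and 0.103. Robo4 was at 2.03 ± 0.189 CPM in H3K9M and 4.47 ± 0.707 CPM in H3WT (-1.14 ± 0.23, edgeR adjusted p = 0.0453). Only the fit without H3WT replicate 3 kept that call among those leaving out a library, with adjusted p up to 0.200 in the others. Nos3 (-1.02 ± 0.20, 0.0444) lost its call whichever library was left out, with adjusted p up to 0.126, and Ddr2 (0.66 ± 0.10, 0.0210) without any H3K9M replicate or without H3WT replicate 2, with adjusted p up to 0.0979. The median over the 20 endothelial markers was -0.59 and over the 12 fibroblast markers -0.28. The cardiomyocyte median was 0.05 with 0 of 15 called in edgeR (1 higher at an unadjusted p under 0.05).

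**Figure D5:**
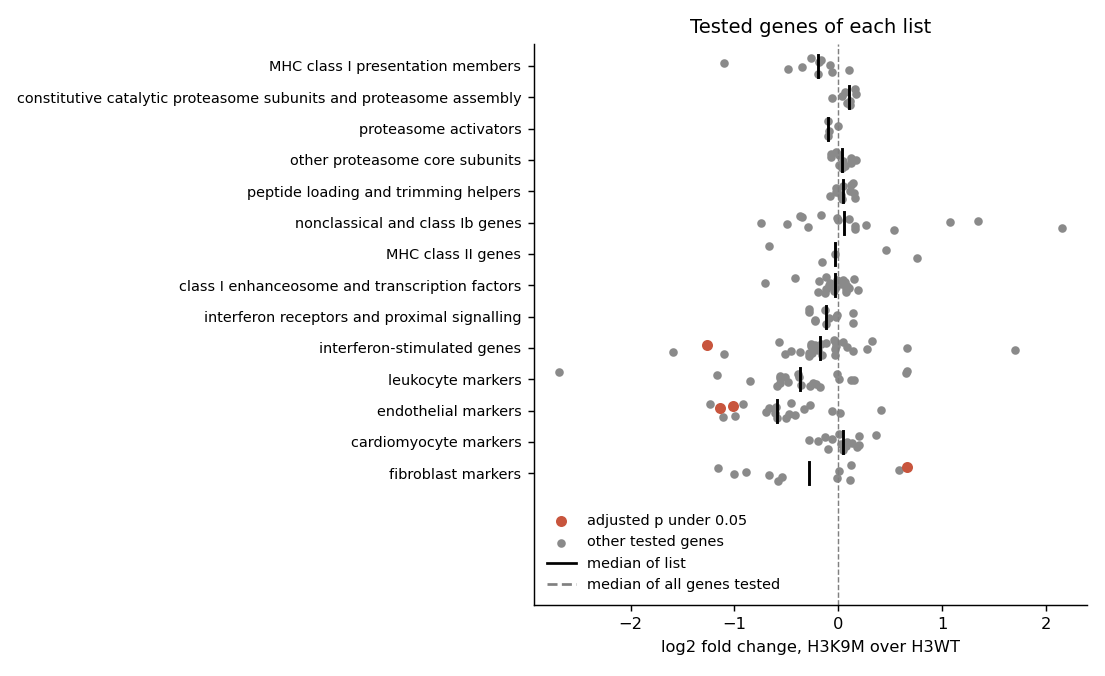
Log2 fold change, H3K9M over H3WT, of every tested gene of the 14 lists; black bars are list medians, the dashed line is the median of all tested genes, and red points passed an adjusted p of 0.05. The class I genes have a median of -0.19 and no red point, and the endothelial markers have the lowest median, -0.59.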

How the data were processed

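The authors deposited raw read counts per gene for 6 libraries, whose column names match 1 sample each. Per the submitters' processing notes, the tools were HISAT2, featureCounts and DESeq2, with build mm10. The authors' deposited comparison gives a mean normalised count (signal), log2 fold changes and their errors, p-values, and a Wald score that was not used. Libraries held 55550379 to 67994773 counts, with row totals of at least 19.

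Counts were filtered with filterByExpr (10 counts, 15 in total), normalised with TMM and tested with edgeR 4.0.16 (quasi-likelihood F test, group only) over all 14758 genes, with Benjamini-Hochberg adjustment at 0.05. CPM use TMM-scaled library sizes. The standard error is the log2 fold change over the square root of F. The log2 levels behind profiles used CPM + 0.1. DESeq2 1.42.0, limma-voom (limma 3.58.1), RLE factors, total counts, other filters, an adjusted p of 0.1, a replicate block and left-out libraries were alternatives. The steps were tested on simulated data. Gene models were those of GENCODE M21 (GRCm38, also called mm10). The chi-square per gene between replicates was 27.0 to 120.9, so no library copies another. Genes and lists were chosen with earlier results of these data known. Named are all 10 members, and from each list the genes past the threshold and others among the 2 smallest p and the 2 highest CPM. Psme2, H2-T22, H2-T9, H2-Ke6, Mr1, Hfe, Ciita, Cd74, Ptprc, Cd52 and the leukocyte genes with no row were chosen after their values were seen. Similar profiles were the 6 highest r. No set test was run.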

Additional observations from a re-analysis of the deposited data

How the results depend on the processing

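None of the 10 genes was called in the other fits run: DESeq2, limma-voom, RLE factors, total counts, no filter, at least 5 CPM in 3 libraries (7 genes tested), an adjusted p of 0.1, the replicate block, and each left-out library. Of 147 values of these genes under the alternatives, 137 kept their sign and 10 reversed it. With a library left out, H2-K1 ranged from -0.19 to 0.077 (above 0 without H3K9M replicate 1 or H3WT replicate 1), H2-D1 from -0.0090 to 0.21 (below 0 without H3WT replicate 3) and Tapbp from -0.19 to 0.021 (above 0 without H3WT replicate 1). Psmb9 ranged from -0.49 to 0.27 (above 0 without H3K9M replicate 1 or H3WT replicate 2) and Nlrc5 from -0.61 to 0.18 (above 0 without H3K9M replicate 3 or H3WT replicate 2). Leaving out replicate 1 of both groups, whose titles lack the day mark of the others, put H2-K1 at 0.15, Tapbp at 0.072 and H2-D1 at 0.31 (higher at an unadjusted p of 0.0143, edgeR adjusted p = 0.192). Psmb8 ranged from -1.56 to -0.68 and Tap1 from -0.80 to -0.30 with a library left out. At an unadjusted p under 0.05, B2m, Tap1, Tap2 and Psmb8 were lower in the fits that left out H3K9M replicate 2 or H3WT replicate 3, and Tap2 also with no filter on low counts (0.0492); the smallest adjusted p of a class I gene in any alternative was 0.116 (Psmb8 without H3WT replicate 3).

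The log2 ratio of H2-K1 to H2-D1 ranged from -0.19 to -0.09 with a library left out. The difference in inducible proteasome share ranged from -1.55 to -0.83 percentage points with a library left out, was -1.73 on counts not divided by length, and was -1.35 with the length of all annotated exons, an alternative chosen after seeing the data. In the other lists 1 gene rose and 3 fell; these counts were 4 and 8 with DESeq2, 3 and 6 at an adjusted p of 0.1, 0 and 1 with the replicate block, 0 to 2 and 0 to 4 with a library left out, and 1 fell with limma-voom or with replicate 1 of both groups left out. Over all genes 138 rose and 155 fell, against 471 and 539 with DESeq2, 308 and 356 at an adjusted p of 0.1, and 30 to 149 and 30 to 223 with a library left out. With the replicate block they were 31 and 27. The labels do not say whether same-numbered libraries are paired. Their titles share the mark M1 in replicate 1 and M5 in replicate 3, but differ in replicate 2. Deviations of same-numbered libraries from their group means correlated at -0.25, 0.047 and -0.12 over genes. With 3 libraries per group such correlations cannot settle whether they share an origin. The scaling moved the median of all genes by less than the 0.1 that would matter. Psmb8, Psmb9 and Nlrc5 have the widest intervals and the lowest counts, and standard deviations of 43.1% to 53.9% of their means; the part of depth in this was not tested. The cause of the changes with a left-out library was not tested.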
